A study of Mus musculus with 7 samples.

Results

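The genes described here encode the proteins of the mitochondrial ribosome. They were chosen by symbol from the deposited table of raw counts: every protein-coding mouse gene named Mrpl or Mrps followed by a number, with the 5 named pseudogenes of these families left out. This gave 78 of the 55450 genes in the table, 49 with large-subunit (Mrpl) and 29 with small-subunit (Mrps) symbols. The study treated the clipped and depilated (Nair) dorsal skin of male C57BL/6 mice aged 24 months for 5 days, under a semi-occlusive dressing, with 5 μM ABT-263 or with its vehicle DMSO alone. ABT-263 (navitoclax) blocks BCL-2 and BCL-xL, proteins that keep cells from apoptosis. Polyadenylated RNA of whole skin was sequenced from 4 DMSO mice (480, 481, 482 and 483) and 3 ABT-263 mice (476, 477 and 478), 1 library a mouse. No untreated and no young skin was analysed here, so each difference below is ABT-263 in DMSO against DMSO alone.

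Mitochondria carry their own ribosome, which is built from RNAs encoded in mitochondrial DNA and from proteins that are encoded in the nucleus, made in the cytosol and imported. It makes only the few hydrophobic core subunits of the electron transport chain and ATP synthase that mitochondrial DNA still encodes, and it works attached to the inner membrane. The small subunit reads the messenger RNA, and the large subunit joins the amino acids and passes the new chain to the membrane. Some of its proteins descend from bacterial ribosomal proteins and others were added in the mitochondrial lineage, among them proteins that replace lost ribosomal RNA. Tissues rich in mitochondria, such as skeletal muscle and brown fat, hold high levels of it. The mitochondrial ribosomal RNAs themselves were not analysed here.

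The libraries held between 20344364 and 43562330 counts, and each of the 3 ABT-263 libraries (27325963 to 43562330) was deeper than each DMSO library (20344364 to 26824123). Values per mouse are given below in CPM, a gene's counts relative to the library total after TMM scaling. The keratinocyte markers summed to between 19775 and 69429 CPM in every mouse, with overlapping groups. Skeletal muscle markers, from the muscle layer under mouse skin, summed to 45083 to 89563 CPM in DMSO and to 32777 to 44953 CPM in ABT-263, and 4 of the 12 fell while the other 8 did not pass the test. All 6 macrophage markers rose, with sums of 185 to 463 CPM in DMSO and 723 to 2628 CPM in ABT-263. The neutrophil and fibroblast sums were also higher in every ABT-263 mouse than in any DMSO mouse. Of the markers tested, 3 of 5 for neutrophils and 3 of 6 for fibroblasts rose, and the others did not pass. S100a8 and S100a9 made up most of the neutrophil sum (2082 and 3453 of 5563 CPM in ABT-263 mouse 478). Ly6g, not tested, had 14.0, 0.10 and 0.17 CPM in ABT-263 mice 476, 477 and 478. In whole skin, fewer cells of a type and less RNA per cell cannot be told apart.

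ABT-263-treated skin held less RNA for many of the proteins of both ribosomal subunits. Of the 77 members that passed the filter on low counts, 24 fell, 2 rose and 51 did not pass the test (edgeR quasi-likelihood test, Benjamini-Hochberg adjusted p under 0.05 over the 17959 genes tested). Among all genes tested 11.7% fell and 12.4% rose, so the share of members that fell, 31.2%, lay above that of genes in general and the share that rose, 2.60%, below it. The log2 fold change (ABT-263 over DMSO) was negative for 63 members and positive for 14, with a median of -0.33, against a median of 0.00 over all genes tested. In 49 of the 77 members each ABT-263 mouse lay below each DMSO mouse (63.6%, against 18.4% of all genes tested), and in 4 each lay above (5.19%, against 18.7%). The count depended on single mice. It came to 8 lower without ABT-263 mouse 478, where 4.17% of all genes fell, to 12 without DMSO mouse 482 (5.5% of all genes), to 14 without DMSO mouse 483 (6.07%) and to 16 without ABT-263 mouse 476 (5.99%). Without ABT-263 mouse 477 or DMSO mouse 481 it was 21 (9.33% and 8.11% of all genes), and without DMSO mouse 480 it was 27 (11.9%). In 59 of the 77 members the log2 fold change was negative in all 7 of these fits.

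Summed over its members, the large subunit took 3187, 3129, 3540.1 and 3374 CPM in the DMSO mice 480 to 483 and 2467, 2557 and 2266 CPM in the ABT-263 mice 476 to 478. The small subunit took 1451, 1444, 1581 and 1551 CPM in DMSO and 1169, 1218 and 1104 CPM in ABT-263. Neither sum overlapped between the groups, and ABT-263 mouse 478 was lowest in both. The sums of all 78 members came to 4814 ± 255 CPM (SD, n = 4) and 3594 ± 206 CPM (SD, n = 3). The muscle marker sums separated the groups in the same direction (lowest DMSO mouse 45083 CPM, highest ABT-263 mouse 44953 CPM) and the macrophage and neutrophil sums in the other, and their part in the difference was not tested.

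**Figure D1:**
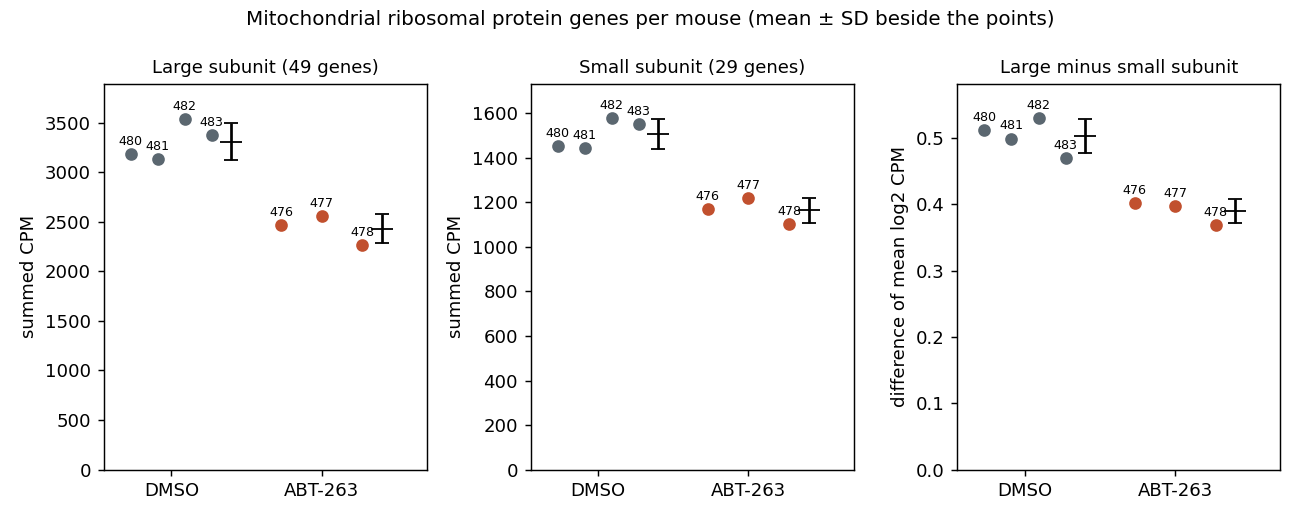
Summed CPM of the 49 large-subunit and 29 small-subunit genes in each mouse (left and middle, linear axes from 0) and the mean log2 CPM of the large minus that of the small subunit (right). Each point is a mouse with its number, the bars are mean ± SD, and the 3 ABT-263 mice lie below the 4 DMSO mice in all 3 panels.

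The large and small subunits were compared next. In the large subunit 15 of the 48 members tested fell and 1 rose (median log2 fold change -0.37). In the small subunit 9 of 29 fell and 1 rose (median -0.30). The shares that fell, 31.2% and 31.0%, were close to each other. The upper quartiles were not, at -0.18 in the large and 0.10 in the small subunit, and 8 of the 29 small-subunit against 6 of the 48 large-subunit members had positive values. The mean log2 CPM of the large-subunit members lay above that of the small-subunit members by 0.511, 0.499, 0.530 and 0.470 in the DMSO mice and by 0.402, 0.397 and 0.369 in the ABT-263 mice. The groups did not overlap, and the gap was 0.11 smaller in ABT-263, a description of these members with no test. Symbols do not follow structure everywhere: Mrps18a and Mrps30 sit in the large subunit, and Mrps36 is a component of the 2-oxoglutarate dehydrogenase complex and not of the ribosome. Sorted by structure, the medians were -0.37 over 50 large-subunit and -0.31 over 26 small-subunit members. The upper quartiles were then -0.17 and 0.06, and 6 of the 50 and 7 of the 26 had positive values.

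**Figure D2:**
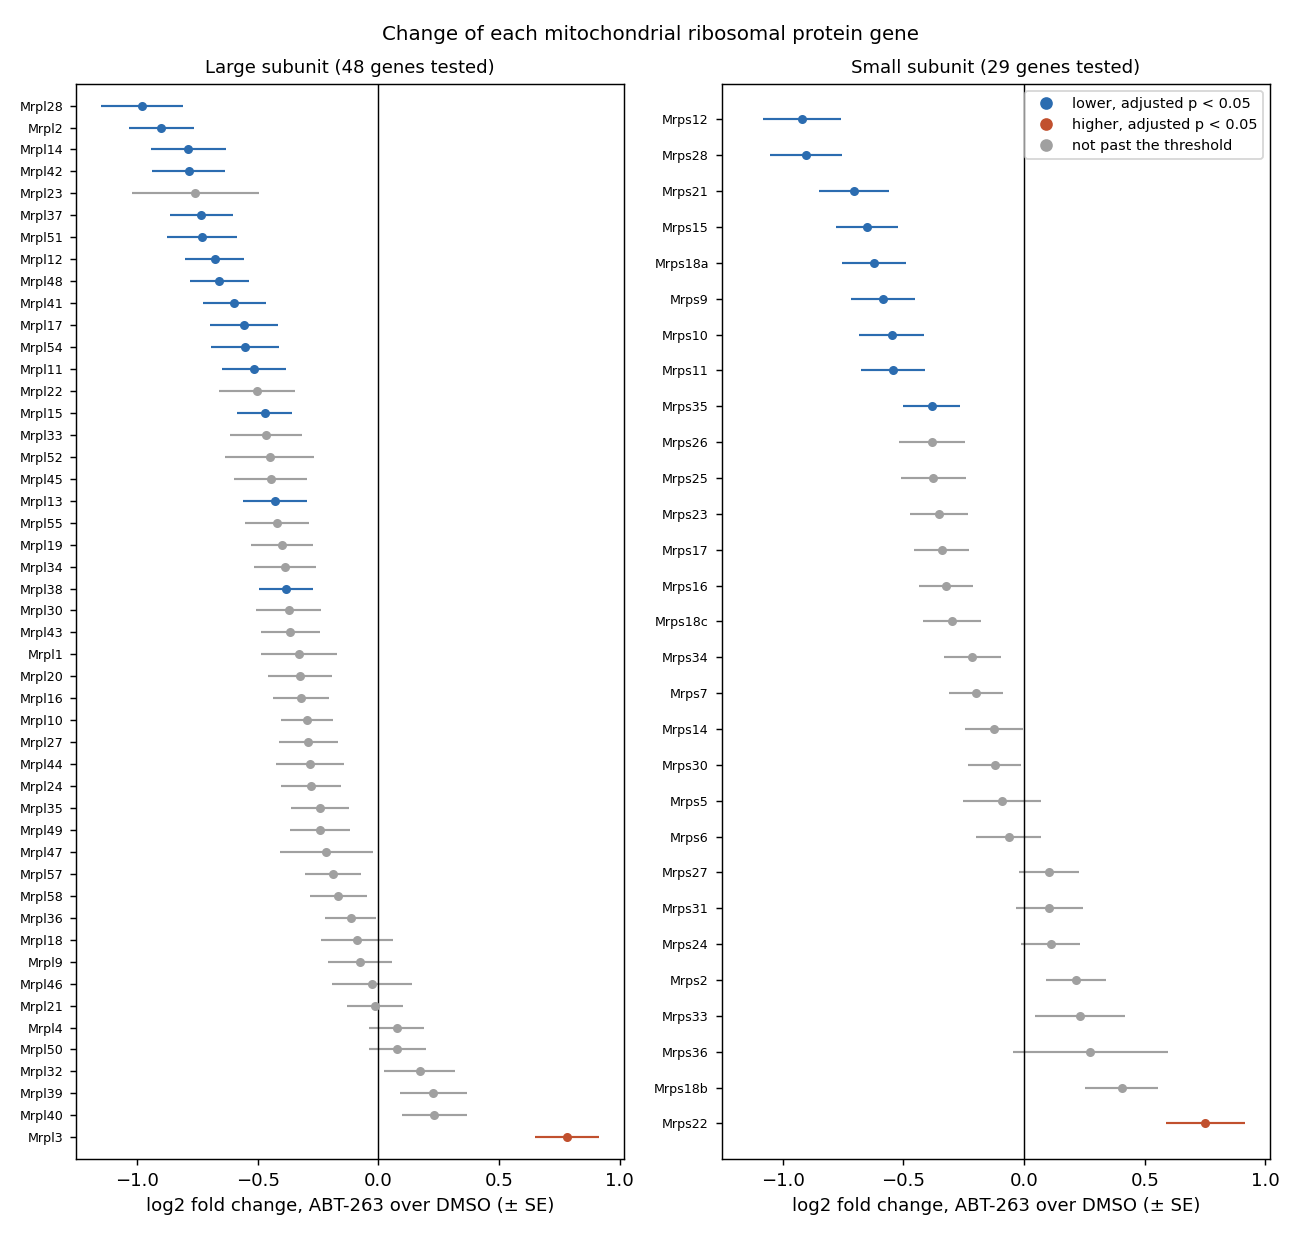
Log2 fold change (ABT-263 over DMSO, x axis) with its standard error for each member tested, sorted within the large (left) and small (right) subunit. Blue points fell, red points rose and grey points did not pass adjusted p under 0.05: 15 blue and 1 red of 48 on the left, 9 blue and 1 red of 29 on the right.

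Among the proteins around the catalytic centre of the large subunit, Mrpl2, which lies close to the site where peptide bonds are formed, had the smallest p of all members. It stood at 131, 152, 157 and 166 CPM in the DMSO mice and at 79.4, 88.6 and 75.6 CPM in the ABT-263 mice. Every ABT-263 mouse was below every DMSO mouse, a 1.86-fold fall (log2 -0.90 ± 0.13 SE, adjusted p = 0.00713). Mrpl28 (chr17:26123500-26126613, plus strand, GRCm38), a protein of bacterial descent, fell most of all members, from 194, 166, 199 and 187 CPM to 83.3, 119 and 81.6 CPM. ABT-263 mouse 477 was the least affected, but it too lay under the lowest DMSO mouse (1.97-fold, log2 -0.98 ± 0.17 SE, adjusted p = 0.0098). Mrpl14, a bacterial-type protein at the face towards the small subunit, read 155, 116, 158 and 142 CPM in DMSO and 78.0, 94.2 and 76.2 CPM in ABT-263. DMSO mouse 481 was its lowest control and still above all treated mice (log2 -0.79 ± 0.15 SE, adjusted p = 0.0132, and 0.0521 without ABT-263 mouse 478).

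Mrpl12 forms the flexible stalk that recruits translation factors to the ribosome. Its levels were 190.2, 192, 218 and 202 CPM in DMSO and 124, 133 and 119 CPM in ABT-263. The spread within each group was small beside the gap, and it fell (log2 -0.68 ± 0.12 SE, adjusted p = 0.0105). Mrpl37, a protein found only in mitochondrial ribosomes, went from 93.6, 98.2, 114 and 116 CPM to 63.6, 66.9 and 60.1 CPM (log2 -0.73 ± 0.13 SE, adjusted p = 0.00997). Mrpl2, Mrpl28, Mrpl37 and Mrpl12 passed the test in all 7 fits that left out a mouse, as did Mrpl42 and Mrpl48, which are also specific to mitochondria. Those last genes were picked for this after their values were seen.

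Large-subunit proteins with further roles were less uniform. Mrpl41, a mitochondria-specific protein also described as a partner of p53, measured 80.8, 69.1, 84.1 and 73.2 CPM in DMSO and 46.4, 57.2 and 48.8 CPM in ABT-263. The groups were separate and it fell (log2 -0.60 ± 0.13 SE, adjusted p = 0.018), although it passed in only 4 of the 7 fits without a mouse, with adjusted p up to 0.0669 when DMSO mouse 482 or ABT-263 mouse 476 or 478 was left out. Mrpl45, which anchors the ribosome to the inner membrane, had 59.2, 62.0, 82.3 and 76.1 CPM against 54.6, 52.8 and 46.6 CPM, and missed the threshold (log2 -0.45 ± 0.15 SE, adjusted p = 0.0644). Mrpl44, a protein with a ribonuclease fold, overlapped between the groups (35.8 to 50.7 CPM in DMSO, 36.3 to 38.9 CPM in ABT-263, log2 -0.28, adjusted p = 0.176). Mrpl58, a peptidyl-tRNA hydrolase that releases stalled chains, overlapped as well (45.4 to 55.5 CPM and 42.3 to 46.4 CPM, log2 -0.16, adjusted p = 0.334).

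In the small subunit, Mrps12 lies at the decoding centre, where codon and anticodon are matched. It stood at 84.2, 83.5, 108.6 and 106 CPM in DMSO and at 49.02, 58.6 and 43.8 CPM in ABT-263, with no overlap (1.89-fold lower, log2 -0.92 ± 0.16 SE, adjusted p = 0.00991). Mrps28, the counterpart of a bacterial messenger-binding protein, had 59.3, 59.4, 59.2 and 70.9 CPM in DMSO and 30.7, 39.7 and 29.3 CPM in ABT-263. Its fall was of similar size (1.87-fold, log2 -0.90 ± 0.15 SE, adjusted p = 0.00845), and both genes passed the test without any 1 of the 7 mice. Mrps15, a bacterial-type protein of the small-subunit platform, fell from 76.1 to 90.5 CPM in DMSO to 47.2 to 55.9 CPM in ABT-263 (log2 -0.65 ± 0.13 SE, adjusted p = 0.0131, and 0.0509 without ABT-263 mouse 478).

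Mrps21, a short bacterial-type protein, had the highest level per kilobase of all members, at 263 CPM per kilobase of its annotated principal transcript. Its per-mouse levels were 151, 135, 169 and 161 CPM in DMSO and 98.3, 105 and 80.4 CPM in ABT-263, a 1.63-fold fall (log2 -0.71 ± 0.15 SE, adjusted p = 0.0148, and 0.0524 without ABT-263 mouse 478). Mrps34, a mitochondria-specific protein, was also high per kilobase (93.2 CPM) but moved little, from 91.4, 80.8, 99.6 and 91.9 CPM to 77.9, 80.6 and 76.6 CPM (log2 -0.21 ± 0.12 SE, adjusted p = 0.208). Its exons share bases with other annotated genes, 37.0% of them on the same strand. Mrps27, an RNA-binding pentatricopeptide repeat protein, overlapped between the groups at 28.96 to 33.9 CPM and 31.9 to 37.7 CPM (log2 0.10, adjusted p = 0.563). Among the highest large-subunit genes per kilobase, Mrpl52 (216 CPM) and Mrpl33 (181 CPM) had log2 fold changes of -0.45 and -0.46 and missed the threshold (adjusted p = 0.107 and 0.0543), and in Mrpl52 the value of ABT-263 mouse 478, 53.2 CPM, lay far below those of mice 476 and 477, 88.9 and 82.4 CPM.

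**Figure D3:**
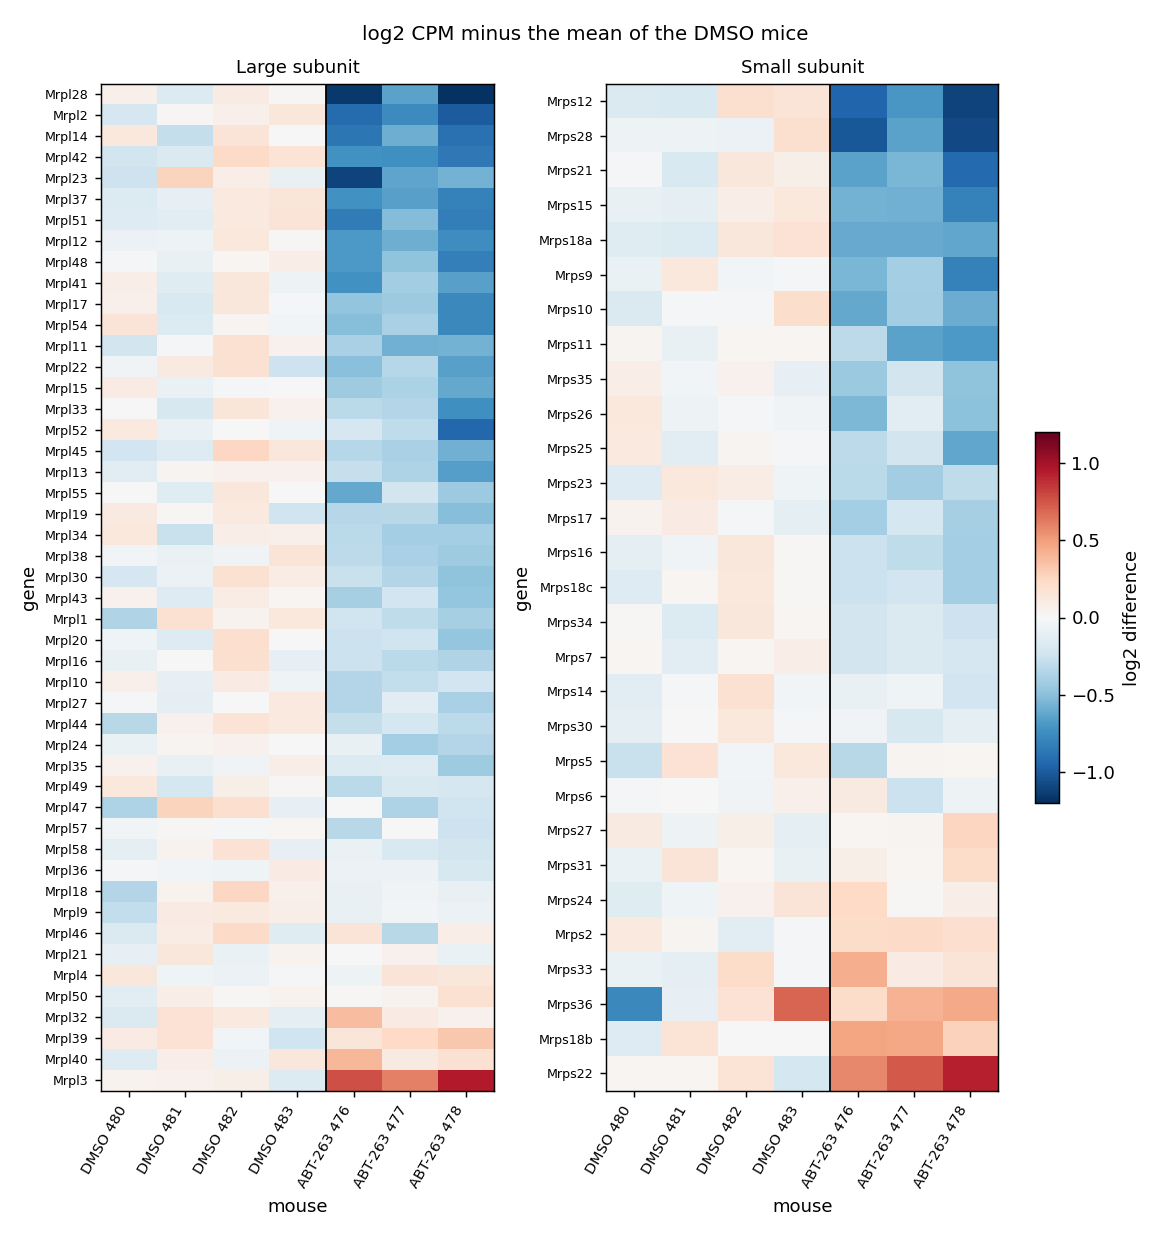
Log2 CPM of every member tested in each mouse, minus the mean of the 4 DMSO mice (colour, from -1.2 in blue to 1.2 in red), sorted by fold change within the large (left) and small (right) subunit. The 3 columns right of the line are the ABT-263 mice, and Mrpl3 and Mrps22 at the foot are the 2 members that rose.

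Against the majority, 1 gene of each subunit rose. Mrpl3 (chr9:105053239-105079888, plus strand), a bacterial-type protein of the catalytic core, stood at 18.9, 19.0, 19.3 and 16.4 CPM in DMSO and at 31.4, 27.9 and 35.5 CPM in ABT-263. All treated mice lay above all controls, a 1.72-fold rise (log2 0.78 ± 0.13 SE, adjusted p = 0.00927) that passed without any 1 of the 7 mice, with log2 between 0.70 and 0.89. Mrps22 (chr9:98588730-98601660, minus strand), a mitochondria-specific protein of the small subunit, had 8.67, 8.68, 9.55 and 7.35 CPM and then 12.7, 14.2 and 16.3 CPM. It rose 1.68-fold (log2 0.75 ± 0.16 SE, adjusted p = 0.0174, and 0.0646 without ABT-263 mouse 478). The exact permutation test over mice gave p = 0.0286 for each of the members named so far that rose or fell, the smallest p that 4 against 3 mice allow.

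Other members with positive values did not pass the test. In the large subunit the smallest p among them belonged to Mrpl40 (21.0 to 25.7 CPM in DMSO, 25.2 to 30.8 CPM in ABT-263, log2 0.23, adjusted p = 0.231), Mrpl39 (log2 0.23, adjusted p = 0.255) and Mrpl32 (log2 0.17, adjusted p = 0.415). In the small subunit Mrps2, a bacterial-type protein, had 15.3 to 18.2 CPM in DMSO and 19.4 to 19.8 CPM in ABT-263, with no overlap, but an adjusted p of 0.227 (log2 0.22). Mrpl53 was left out of the test because it had 0 counts in all 4 DMSO libraries and 1, 4 and 10 counts in the ABT-263 libraries. Of its exon bases 88.0% lie under another gene annotated on the same strand, so its counts cannot be read as its level.

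Mammals have a trio of genes, Mrps18a, Mrps18b and Mrps18c, that descend from a single bacterial small-subunit gene and whose proteins occupy different sites of the ribosome, Mrps18a in the large subunit. Mrps18a read 70.5, 69.8, 86.1 and 88.4 CPM in DMSO and 51.3, 51.4 and 50.7 CPM in ABT-263. The treated mice were nearly identical and all below the controls (log2 -0.62 ± 0.13 SE, adjusted p = 0.016, and up to 0.0568 without DMSO mouse 482 or ABT-263 mouse 478). Mrps18b read 8.51, 10.6, 9.44 and 9.45 CPM in DMSO and 13.2, 13.1 and 11.5 CPM in ABT-263, the opposite order, and missed the threshold (log2 0.41 ± 0.15 SE, adjusted p = 0.0828). Mrps18c read 30.8 to 37.4 CPM and 25.9 to 29.3 CPM (log2 -0.30 ± 0.12 SE, adjusted p = 0.103). The differences between the 3 genes were not tested.

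The other members whose symbols and structure disagree did not pass the test. Mrps30, which sits in the large subunit, had 39.0 to 45.8 CPM in DMSO and 36.7 to 40.8 CPM in ABT-263 (log2 -0.12, adjusted p = 0.447). Mrps36 had 2.78, 4.47, 5.39 and 7.72 CPM in DMSO and 5.54, 6.38 and 6.55 CPM in ABT-263 (log2 0.28 ± 0.32 SE, adjusted p = 0.557), the widest spread between controls, relative to the mean, of all members tested. By descent, 15 of the 46 bacterial-type members fell and 1 rose (median -0.33), and 9 of the 30 mitochondria-specific members tested fell and 1 rose (median -0.32). Of the 10 mitochondria-specific proteins of the small subunit 1 fell (Mrps35) and 1 rose (Mrps22), near the shares of all genes tested (11.7% and 12.4%), and their median was -0.06, against -0.33 over the 16 bacterial-type proteins of that subunit. The difference between these medians was not tested, and no p is given for a list chosen with results known. Mrps35 lost its call whenever a mouse was left out, and also with DESeq2.

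The change differed along the range of levels. Of the 26 members with the highest level per kilobase (52.4 to 263 CPM per kilobase), 14 fell and 1 had a positive value, Mrps24, with a median of -0.51. Of the 26 in the middle 6 fell and 2 had positive values (median -0.29). Of the 25 lowest (3.62 to 17.6 CPM per kilobase) 4 fell, the 2 members that rose are here, and 11 had positive values (median -0.12). Of all genes tested 11.7% fell and 12.4% rose, and the calls among the 25 lowest members lay near these shares. Across the 77 members the Spearman correlation of level and log2 fold change was -0.53, and it was -0.13 across the 14720 tested genes with a principal transcript. With plain CPM it was -0.61 among members and -0.03 over all 17959 genes. These are correlations across genes of the same 7 libraries, so the points are not independent, levels per kilobase rest on annotated lengths, and no p is given. GC content and exon length were more weakly related to the change among members, with Spearman correlations of -0.21 and 0.05.

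**Figure D4:**
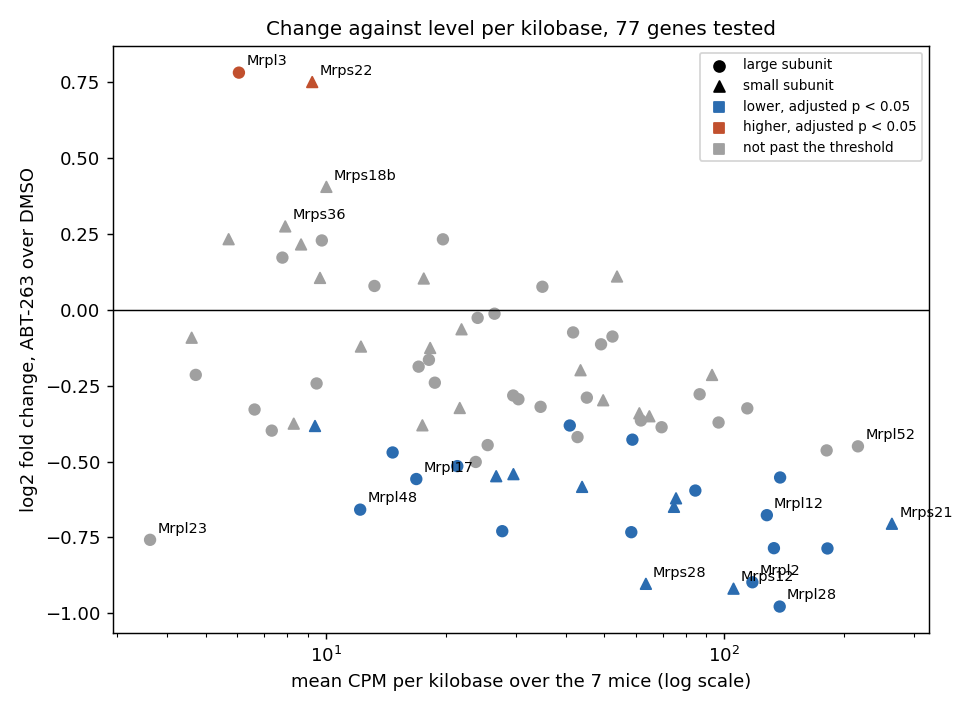
Log2 fold change (ABT-263 over DMSO) of the 77 members tested against their mean level over the 7 mice in CPM per kilobase (log axis). Circles are large-subunit and triangles small-subunit genes, blue fell and red rose. The positive values lie mostly at the left, where 11 of the 14 belong to the 25 lowest members.

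Processed pseudogenes, intronless copies of a messenger RNA elsewhere in the genome, can take or lose reads of their parent gene. A search of the annotated transcripts found processed pseudogenes with at least 90% identity over at least 200 bases for 24 members, and in 10 of them the copies held at least 10% of the combined counts. Mrpl23 itself had 2.54, 3.62, 3.18 and 2.83 CPM in DMSO and 1.39, 1.94 and 2.04 CPM in ABT-263, while its copy Mrpl23-ps1, identical over 540 bases, held 95.6% of the counts of both. Gene and copy together came to 63.0, 63.8, 70.1 and 68.7 CPM in DMSO and 43.98, 47.8 and 39.6 CPM in ABT-263. Alone, Mrpl23 missed the threshold (log2 -0.76 ± 0.26 SE, adjusted p = 0.0679), and with the copy it passed (log2 -0.60 ± 0.12 SE, adjusted p = 0.0128). For Mrps18b the copy held 30.3% of the counts, and adding it took the log2 fold change from 0.41 to 0.15 (adjusted p = 0.43). For Mrps36 the copies held 62.0%, and the value went from 0.28 to -0.06 (adjusted p = 0.862). For Mrps33, another small-subunit member, they held 60.3% and the value was 0.23 alone and 0.25 with copies. For Mrpl48, which fell, the copy held 21.3%. Adding it took the value from -0.66 to -0.49, and Mrpl48 still passed (adjusted p = 0.0258). With all copies added, 25 members fell and 2 rose.

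Promoters of members were examined for letters bound by factors known to act on nuclear genes of mitochondria: NRF1 (its consensus), the ETS family with GABP (CCGGAAG) and YY1 (AAGATGGCG), on both strands. RefSeq start sites (GRCm38.p6) gave windows of 300 bases, 250 before and 50 after the start, for 69 of the 78 members. The NRF1 letters were in windows of 13 members (18.8%, against 5.19% of 27025 genes), the ETS letters in 26 (37.7%, against 9.93%) and the YY1 letters in 8 (11.6%, against 1.64%). At least 1 of the motifs was in 41 members (59.4%, against 15.1% of genes). The 27025 genes are all those with a window, whether or not they were tested here, and the shares among tested genes alone were not computed. Among members with the ETS letters 6 of the 25 tested fell and the median log2 fold change was -0.35, and among the 43 without them 12 fell and the median was -0.29. For NRF1, 5 of 13 with the letters fell (median -0.38) and 13 of 55 without (median -0.30). For YY1, 4 of 8 with the letters fell (median -0.39) and 14 of 60 without (median -0.32). Of all genes tested 11.7% fell. The 9 members without a window entered neither side, among them Mrps28 and Mrps35, which fell. The ETS letters end as the YY1 letters begin, so both can match overlapping bases, and a match describes the sequence only.

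The stretches below are the 250 bases before the start of 6 members, shown because the same ETS letters stand near the start of genes that moved in opposite directions and because the NRF1 letters stand in abundant members that fell. Of the 13 members with the NRF1 letters 5 fell (of all genes tested 11.7% fell), and Mrpl32 and Mrpl39 had positive values. Capitals mark the motif letters. The first is Mrpl3 (chr9:105053018-105053267, plus strand), which rose.
Mrpl3: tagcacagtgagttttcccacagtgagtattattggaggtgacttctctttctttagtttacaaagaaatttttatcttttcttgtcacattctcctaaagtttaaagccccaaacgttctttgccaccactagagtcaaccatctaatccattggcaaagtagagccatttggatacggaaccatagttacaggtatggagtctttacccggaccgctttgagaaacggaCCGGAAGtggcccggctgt
Mrps22 (chr9:98601680-98601929, minus strand) rose as well.
Mrps22: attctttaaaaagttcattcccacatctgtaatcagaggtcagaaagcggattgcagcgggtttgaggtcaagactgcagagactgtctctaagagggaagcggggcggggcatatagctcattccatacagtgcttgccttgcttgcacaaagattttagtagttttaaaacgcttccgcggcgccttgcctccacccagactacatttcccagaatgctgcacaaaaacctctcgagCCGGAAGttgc
Mrps18a (chr17:46110754-46111003, plus strand) fell.
Mrps18a: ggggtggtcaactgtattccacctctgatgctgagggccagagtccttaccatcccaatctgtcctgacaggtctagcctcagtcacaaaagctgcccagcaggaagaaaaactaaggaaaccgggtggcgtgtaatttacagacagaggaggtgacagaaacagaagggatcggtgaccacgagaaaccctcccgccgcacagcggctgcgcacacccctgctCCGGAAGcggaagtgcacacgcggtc
In these 3 the ETS letters begin 19, 11 and 26 bases before the start. Mrps18a also holds the YY1 letters, 11 bases after the start and so outside the printed stretch. Mrpl12 (chr11:120484387-120484636, plus strand) and Mrps21 (chr3:95871515-95871764, minus strand) fell and hold the NRF1 letters, which begin 81 and 91 bases before the start. Mrps21 also holds the ETS letters, 18 bases after the start and not printed.
Mrpl12: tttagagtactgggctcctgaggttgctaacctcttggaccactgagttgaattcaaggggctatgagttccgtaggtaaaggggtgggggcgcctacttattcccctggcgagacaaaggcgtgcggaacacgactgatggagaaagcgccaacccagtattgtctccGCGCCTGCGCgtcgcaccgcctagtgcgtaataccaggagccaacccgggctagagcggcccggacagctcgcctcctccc
Mrps21: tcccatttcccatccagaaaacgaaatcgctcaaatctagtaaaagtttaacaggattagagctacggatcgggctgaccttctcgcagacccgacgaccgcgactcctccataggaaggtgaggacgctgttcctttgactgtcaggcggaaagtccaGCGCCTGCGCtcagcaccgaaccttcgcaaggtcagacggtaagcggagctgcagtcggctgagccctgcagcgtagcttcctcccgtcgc
Mrpl17 (chr7:105811088-105811337, minus strand), a bacterial-type protein that fell from 126 to 157 CPM in DMSO to 83.5 to 105 CPM in ABT-263 (log2 -0.56 ± 0.14 SE, adjusted p = 0.0272), holds both in the printed stretch, the ETS letters 237 and the NRF1 letters 49 bases before the start. Mrpl57, Mrps21 and Mrps26 also hold both in their windows. Mrpl17 was picked for its sequence after its values were seen. It did not pass the test without DMSO mouse 482 or 483 or ABT-263 mouse 476 or 478.
Mrpl17: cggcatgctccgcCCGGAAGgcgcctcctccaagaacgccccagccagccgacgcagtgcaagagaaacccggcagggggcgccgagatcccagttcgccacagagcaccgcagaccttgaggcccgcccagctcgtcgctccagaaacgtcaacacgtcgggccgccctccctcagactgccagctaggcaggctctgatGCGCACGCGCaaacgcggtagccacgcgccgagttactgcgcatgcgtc

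Many members start near a gene on the other strand. For 33 members such a gene starts within 1000 bases, and both genes were tested in 31 pairs. Some pairs start back to back and in others the genes overlap, as in Mrpl36 with Ndufs6 and Mrps11 with Mrpl46. In 10 pairs the member fell, and in these the neighbour passed the test in 0 with edgeR (1 at an unadjusted p under 0.05, Cyb5rl) and in 0 with DESeq2. Of all genes, 24.2% passed with edgeR and 25.9% with DESeq2. Over all 31 pairs 5 neighbours fell, the member Mrps11 among them, and 1 rose. Of all genes tested, 11.7% fell and 12.4% rose. Mrps12 and Sars2, the mitochondrial seryl-tRNA synthetase gene, start 172 bases apart and had log2 fold changes of -0.92 and -0.34 (adjusted p = 0.00991 and 0.182). Mrpl36 and Ndufs6, a complex I subunit gene, start 29 bases apart, and here the neighbour fell (log2 -1.10, adjusted p = 0.00628) while the member had -0.11 (adjusted p = 0.454). The only pair of 2 members, Mrps11 and Mrpl46, had values of -0.54 (adjusted p = 0.0242) and -0.03 (adjusted p = 0.923). That pair counts once from each side. Across the 31 pairs the Spearman correlation of the log2 fold changes was 0.03.

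Ribosomal proteins under other names were read from the same fit. Gadd45gip1, a large-subunit protein at the tunnel exit, stood at 96.2, 89.7, 96.9 and 110.0 CPM in DMSO and at 68.9, 67.4 and 57.1 CPM in ABT-263 and fell (log2 -0.61 ± 0.13 SE, adjusted p = 0.0167, and 0.0612 without ABT-263 mouse 478). Dap3, a GTP-binding small-subunit protein first known as a death-associated protein, had 103, 106, 102 and 102 CPM and then 83.2, 72.1 and 68.2 CPM (log2 -0.47, adjusted p = 0.0261). Aurkaip1, a small-subunit protein, fell too (log2 -0.47, adjusted p = 0.0397), but Dap3 and Aurkaip1 passed in only 2 of the 7 fits that left out a mouse, with adjusted p up to 0.0883 and 0.129. The small-subunit proteins Chchd1 (log2 -0.10, adjusted p = 0.696) and Ptcd3 (log2 0.59, adjusted p = 0.0837) did not pass.

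The factors that build and run the ribosome moved in both directions. Over 61 such genes (ribosomal proteins under other names, assembly factors, translation factors and aminoacyl-tRNA synthetases) 15 fell and 4 rose, with a median of -0.16 (24.6% and 6.56%, against 11.7% and 12.4% of all genes tested). In the fits that left out a mouse 3 to 13 of them fell, where 4.17% to 11.9% of all genes fell. Of 25 assembly factors 7 fell (28.0%, against 11.7% of all genes tested). Among them were the GTPase gene Mtg1 (27.1, 30.8, 36.9 and 36.2 CPM in DMSO, 19.4, 17.9 and 17.6 CPM in ABT-263, log2 -0.84 ± 0.15 SE, adjusted p = 0.00982) and the helicase gene Dhx30 (log2 -0.61, adjusted p = 0.0125). Mtg1 and Dhx30 passed in all 7 fits that left out a mouse, and the other assembly factors that fell passed in 0 to 6 of them. Noa1 and Fastkd2 had the smallest p among the assembly factors with positive values and did not pass (adjusted p = 0.3 and 0.652). Of 14 translation factors 3 fell and 1 rose (21.4% and 7.14%, against 11.7% and 12.4% of all genes tested). Tsfm, the exchange factor of elongation factor Tu, went from 79.2, 74.3, 75.1 and 70.1 CPM to 31.8, 46.2 and 32.2 CPM, a 2.03-fold fall (log2 -1.02 ± 0.16 SE, adjusted p = 0.00761) and larger than that of any member. Lrpprc, which holds mitochondrial messenger RNAs stable, fell (log2 -0.55, adjusted p = 0.0246) and Mrrf, the ribosome recycling factor, rose (log2 0.55, adjusted p = 0.041), and these passed in 2 and 1 of the 7 fits without a mouse. The remaining translation factor that fell passed in 1 of these fits, and Tsfm passed in all 7. Taco1, a translational activator, had log2 0.68 and an adjusted p of 0.0913.

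The 17 mitochondrial aminoacyl-tRNA synthetase genes, which load the tRNAs, were called about as often as genes in general: 2 fell (11.8%, against 11.7% of all genes tested) and 3 rose (17.6%, against 12.4%). Ears2 (log2 -0.66, adjusted p = 0.0159) and Tars2 (log2 -0.55, adjusted p = 0.0148) fell, and Hars2 (log2 0.68, adjusted p = 0.0202) and Yars2 (log2 0.78, adjusted p = 0.0411) were among those that rose, with a list median of 0.03. Without ABT-263 mouse 478 none of the 4 genes named passed, with adjusted p from 0.058 to 0.133. Hars2 was also lost without DMSO mouse 482 or 483, and Yars2 passed in only 2 of the 7 fits without a mouse. Of 10 genes that copy or transcribe mitochondrial DNA 2 fell, where 11.7% of all genes tested fell. These were the termination factor gene Mterf1a (log2 -1.01, adjusted p = 0.0134) and the helicase gene Twnk (log2 -0.63, adjusted p = 0.0189). Mterf1a passed in all 7 fits without a mouse. Twnk passed in 5 of them and was lost without ABT-263 mouse 476 or 478, with adjusted p up to 0.0644. Tfam, the main packaging and transcription factor, overlapped between the groups (21.2 to 30.8 CPM and 28.7 to 35.8 CPM, adjusted p = 0.253), as did Tefm (adjusted p = 0.63).

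**Figure D5:**
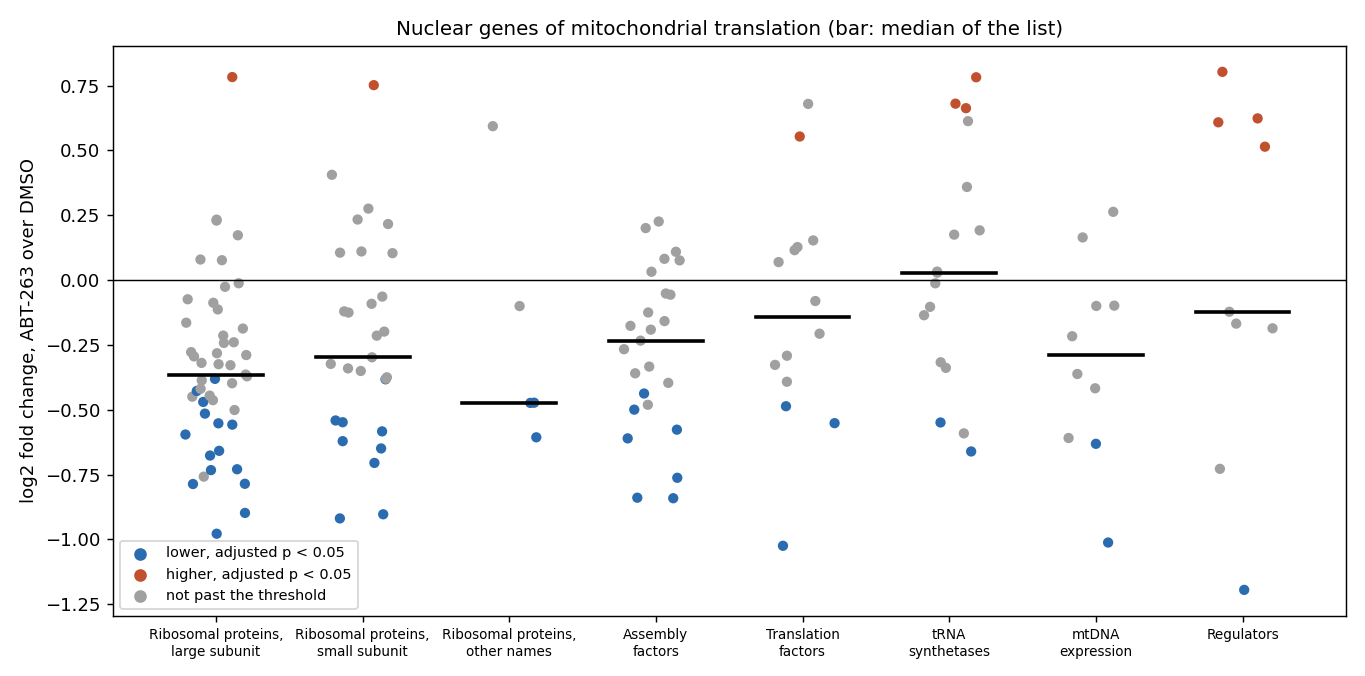
Log2 fold change (ABT-263 over DMSO, y axis) of each tested gene, for the large and small ribosomal subunit and 6 other lists of nuclear genes of mitochondrial gene expression. Blue points fell, red points rose, grey points did not pass the test and black bars are list medians, from -0.47 for the 5 ribosomal proteins under other names to 0.03 for the 17 tRNA synthetases.

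Among 9 regulators of nuclear genes for mitochondria, Ppargc1b, a coactivator of mitochondrial biogenesis, fell from 18.2, 18.2, 21.97 and 22.1 CPM to 9.19, 9.10 and 8.08 CPM (2.29-fold, log2 -1.19 ± 0.15 SE, adjusted p = 0.00622). Its relative Ppargc1a overlapped between the groups, with 5.03 to 9.10 CPM and 2.90 to 6.57 CPM (adjusted p = 0.135). The genes of factors whose letters were searched above did not move together. Nrf1 overlapped between the groups (23.6 to 31.1 CPM in DMSO, 21.8 to 26.8 CPM in ABT-263, log2 -0.17, adjusted p = 0.41). Yy1 stood at 38.8, 42.5, 37.3 and 42.3 CPM in DMSO and at 64.8, 54.2 and 65.0 CPM in ABT-263 (log2 0.61 ± 0.12 SE, adjusted p = 0.013), and both GABP subunit genes rose, Gabpa (log2 0.80, adjusted p = 0.0368) and Gabpb1 (log2 0.51, adjusted p = 0.0387). The growth regulator Myc rose as well (log2 0.62, adjusted p = 0.0162). Yy1 and Ppargc1b passed without any 1 of the 7 mice, Myc in 5 of these fits, Gabpa in 2 and Gabpb1 in 1. The GABP genes were named after their values were seen.

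For scale, the nuclear genes of the electron transport chain and ATP synthase, by symbol prefix, summed to 23565 to 29624 CPM in DMSO and to 17275 to 18189 CPM in ABT-263. Of the 82 tested, 51 fell (62.2%, against 11.7% of all genes tested), with a median of -0.67. Without ABT-263 mouse 478, where 4.17% of all genes fell, 29 fell. Without DMSO mouse 482 (5.5% of all genes) or ABT-263 mouse 476 (5.99%) 33 fell. The cytosolic ribosomal protein genes summed to 28044 to 35002 CPM and to 20195 to 26046 CPM, and 19 of the 79 tested fell and 5 rose, with a median of -0.36, against 11.7% and 12.4% of all genes. That count of 19 depended on single mice, and the share of all genes that fell dropped in the same fits. It was 4 without DMSO mouse 482 or ABT-263 mouse 478 (5.5% and 4.17% of all genes). It was 5 without ABT-263 mouse 476 (5.99%), 6 without DMSO mouse 483 (6.07%) and 13 without DMSO mouse 481 (8.11%). With DESeq2 or with length and GC trends removed it was 27 (12.3% and 14.0% of all genes). The median of the mitochondrial ribosomal proteins, -0.33, thus lay near that of the cytosolic ones and nearer to 0 than that of the electron transport genes. The differences between these lists were not tested, and the lists share the same 7 libraries.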

How the data were processed

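The authors aligned the reads with STAR 2.7.9a to mouse genome build mm10 and deposited counts of uniquely aligned proper read pairs per Ensembl gene, counted with featureCounts of Subread 1.6.2 on the same strand without mitochondrial genes. They also deposited log2-like variance-stabilized values (DESeq2 1.23.10), used here as an alternative. Counts were tested here with edgeR 4.0.16 in R 4.3.3 (TMM, filterByExpr, robust quasi-likelihood test, two-sided, Benjamini-Hochberg over 17959 genes, threshold 0.05), with all 7 mice, and standard errors follow from the F statistic. Symbols and gene types came from GENCODE M21 (GRCm38), which matched 55190 of the 55450 identifiers. Levels per kilobase use the principal transcript. Pseudogene copies were found with BLAST+ 2.17.0. The fit was tested on simulated data. Alternatives used DESeq2 1.42.0, limma 3.58.1 and mgcv 1.9.3.

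Members and gene lists were chosen with earlier results of these data known. Named members are, by subunit, the 4 smallest p in each direction and the 3 highest levels per kilobase, those that moved against the majority, those under the filter and a set picked by function. Other lists give their 2 smallest p in each direction. The neighbour pairs, Mrps24, Mrps35 and the genes of the pseudogene copies were named after their values were seen. Marker lists are summed CPM per mouse. The adipocyte sums (598 to 1632 CPM in DMSO, 701 to 2009.8 CPM in ABT-263) overlapped. Total counts per library, 20344364 to 43562330, set the precision. A planned comparison of the Mrps18 proteins was not run.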

Additional observations from a re-analysis of the deposited data

Results flagged for a closer look

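The 4 DMSO mice were searched for a mouse far from the rest with Dixon's ratio in 81 measures, and 6 exceeded its critical value. Chance alone gives about 1 in 20, or 4.05 here. Groups of 3 were not tested.

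Mrpl3 in DMSO mouse 483 (16.4 CPM) lay under the other DMSO mice (18.9 to 19.3 CPM, ratio 0.852), and without that mouse the log2 fold change was 0.73. Mrps28 in the same mouse (70.9 CPM) lay above the others (59.2 to 59.4 CPM, ratio 0.988). DMSO mouse 480 was lowest for Taco1 (4.34 CPM against 6.01 to 6.24 CPM, ratio 0.879). It was also lowest for the 61 other mitochondrial translation genes, in mean log2 CPM (4.18 against 4.32 to 4.33, ratio 0.919) and in the median log2 difference from the DMSO mean (-0.10 against 0.01 to 0.03, ratio 0.836). Hair follicle markers in DMSO mouse 481 summed to 1013 CPM against 22.8 to 26.7 CPM in the other controls (ratio 0.996), and to 4.54 to 131 CPM in ABT-263. Without DMSO mouse 481, 21 members fell.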

How the results depend on the processing

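The medians of both subunits were negative under every alternative run. With length and GC trends removed, 43 members fell (14.0% of all genes tested) and the medians were -0.45 for the large and -0.40 for the small subunit. Under the other alternatives that kept all 7 mice, 18 to 29 members fell and 2 rose, the 18 with every gene that had a count (where 4.94% of all genes fell) and the 29 with protein-coding genes only (10.8%). Leaving out each mouse gave 8 to 27 lower and 1 to 2 higher members, with medians of -0.40 to -0.31 (large) and -0.33 to -0.24 (small). Of the other 61 translation genes 3 to 13 then fell, where 4.17% to 11.9% of all genes fell, and 0 to 4 rose. Of these 61, 9 fell and 1 rose with every gene that had a count, and 1 rose with length and GC trends removed. Of the called members, Mrpl38 was lost with length and GC trends removed, and Mrpl13 and Mrps35 with DESeq2. All 54 named genes tested kept direction and call in 6 of the 9 alternatives with all mice. With every gene that had a count 4 calls were lost, and with length and GC trends removed 2 were lost and 3 gained. Genes that passed in neither fit changed sign in 4 cases: Mrpl32 (-0.00673) and Fastkd2 (-0.070) with length and GC trends removed, Mrps36 (-0.0594) with copies added and Chchd1 (0.0616) without ABT-263 mouse 477, the highest of its values without a mouse (lowest -0.221). The causes were not tested. Adding pseudogene copies was chosen after seeing the data. No paired analysis was possible because the groups share no replicate numbers. Mrpl53 did not pass the filter on low counts and was not tested.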
